A study of Mus musculus with 2 samples.

Results

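The interleukin 1 system and its inflammasome were examined as 9 genes, taken by symbol from the 32285 genes of the deposited matrix: Il1a, Il1b, Il1rn, Il1r1, Il1r2, Il1rap, Nlrp3, Casp1 and Il18. All 9 were found. The nuclei came from tumour-associated macrophages (TAMs) of mammary tumours in PyMT mice, whose tumours are driven by the polyoma middle T oncogene, on a B6 background. There were 2 samples, both from mice fed a low protein diet: MYC-PyMT mice, which carry S100a8-cre and a Rosa26 allele that expresses MYC once cre has acted, and control-PyMT mice. S100a8 is a gene of neutrophils and their precursors. Irradiation of both kinds of mouse at 7 weeks was followed by a transplant of marrow from donors carrying Fcgr1-cre and Rosa26 LSL-H2B-mCherry, for which no MYC allele is named. Fcgr1 is a monocyte and macrophage gene, and mCherry thus marks nuclei of donor-derived cells that have expressed it. The diet began 2 weeks after irradiation and lasted 6 weeks. Cells were sorted as CD45, F4/80 and Vcam positive and as SiglecF, Ly6G, B220 and Ly6C negative, and their nuclei again as mCherry and SYTO9 positive and CD11b negative.

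Both samples stand in 1 matrix of unique molecular identifier (UMI) counts, each a count of distinct molecules. Barcodes end in 1 of 2 well numbers, and nothing read here ties a well to a genotype. No comparison of genotypes was therefore made, and the matrix counts as 1 sample. Well 1 held 1377 kept nuclei and well 2 held 435, with a median of 2493 UMIs in well 1 and 2852 in well 2, and the 2 wells shared 9 barcode sequences (3 among kept nuclei). With 1 sample there was no test between groups of nuclei. Levels are counts per 1000000 UMIs of a set of nuclei (CPM) with exact 95% Poisson intervals, and ratios have exact 95% intervals. All intervals cover counting error only. Where a set had no UMI of a gene, the limit given is the level or share that 3 counts would make there, and a fold against it is a bound at that limit. A ratio of at least 2 was called higher and one of at most 0.5 lower. CPM values were not divided by gene length, so levels are compared between sets of nuclei and not between genes.

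Interleukin 1 alpha and beta are cytokines of the innate immune response that signal through one receptor, IL1R1, with the accessory chain IL1RAP. The antagonist IL1RN occupies IL1R1 without signalling, and the decoy IL1R2 binds the cytokines but lacks a signalling domain. Pro-IL-1β and pro-IL-18 are made as inactive precursors and are cut by caspase 1, which the NLRP3 inflammasome activates. Macrophages make little Il1b or Nlrp3 mRNA at rest, and stimuli that act through NF-kB raise both. Cleavage and release of the cytokines are not measured by RNA counts.

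Of 1812 kept nuclei, 1256 lay in 3 clusters with macrophage markers and no epithelial markers counted, here called phagocyte nuclei. A further 270 lay in 2 clusters with epithelial markers and no macrophage markers counted, here called epithelial-marker nuclei, though 1 of these clusters also had the B cell gene Ebf1 among its leading genes. The remaining 286 nuclei formed a cluster with a median of 681 UMIs that held both kinds of marker. The summed level of the 11 macrophage markers was 6035 CPM in phagocyte nuclei and 293 CPM in epithelial-marker nuclei. The 9 genes and an IL-1 pathway list of 59 genes were left out of the clustering, so that their own levels did not shape the clusters. Most other genes not used in clustering were left out because they varied less. Shares given below for such genes are therefore no matched background for the 9 genes, which were left out by name. Phagocyte nuclei were then split into 9 clusters, numbered by size. Clusters 2 (268 nuclei) and 8 (67 nuclei) had the highest sums of 2 lists, one of immediate early and heat shock genes (the stress list) and one of NF-kB targets, and are called activated. The stress list summed to 17101 CPM in activated and 3381 CPM in other phagocyte nuclei, and the NF-kB list to 5951 and 1866 CPM. The other nuclei were not uniformly low in these lists. Cluster 3 had 7782 CPM of the stress list and 2856 CPM of the NF-kB list. Cluster 7 had 6032 and 4167 CPM, the latter near the 4878 CPM of the NF-kB list in cluster 2. Cluster 2 was led by heat shock genes such as Hsph1, Dnajb1 and Hsp90aa1. Cluster 8 was led by genes that include Mir155hg and Cxcl1, both known NF-kB targets, and had the highest level of the NF-kB list. Cluster 4 (143 nuclei; Lyve1, Cd163) had the highest level of resident macrophage genes, and cluster 7 (84 nuclei; Gpnmb, Atp6v0d2) of genes of lipid-laden macrophages. Cluster 3 (159 nuclei) had Clnk and Il2rb among its leading genes and held 10 nuclei with 10 or more T or NK marker UMIs. It was therefore given no name. A list of 6 monocyte markers summed to 3320 CPM in cluster 3, with all 6 counted, and to 3587 CPM in cluster 4. Every other phagocyte cluster had 449 CPM or less of that list. Of the 335 activated nuclei 333 came from well 1, and of the 143 resident nuclei 116 came from well 2, so pooled values mix state and well, and values within a well are given beside them. The genotype behind a well is not known.

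The promoters of 4 genes are shown because all 4 were higher in activated nuclei, and the letters near their start sites can be set side by side. Each runs from 250 bases before to 50 after a RefSeq start (GRCm38.p6), 5′ to 3′ on the gene's strand, with capitals marking matches to 7 motifs searched on both strands. The motifs were chosen after levels were known. The NF-kB motif was GGGA and CC with any 4 bases between them. The others were the TATA box (TATAAA), the heat shock element (GAANNTTC), the C/EBP motif (TTGCNNAA), the cyclic AMP response element (TGACGTCA), the AP-1 motif (TGANTCA) and the motif of the macrophage factor PU.1 (GAGGAAG). No match overlapped another in these windows.
Il1a, chr2:129309923-129310222, minus strand: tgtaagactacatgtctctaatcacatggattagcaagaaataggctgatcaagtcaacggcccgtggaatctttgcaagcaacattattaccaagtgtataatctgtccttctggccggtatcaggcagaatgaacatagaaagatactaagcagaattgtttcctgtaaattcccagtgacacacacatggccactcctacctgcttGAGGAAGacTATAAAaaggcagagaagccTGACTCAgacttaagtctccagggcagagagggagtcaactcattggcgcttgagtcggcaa
Il1b, chr2:129371090-129371389, minus strand: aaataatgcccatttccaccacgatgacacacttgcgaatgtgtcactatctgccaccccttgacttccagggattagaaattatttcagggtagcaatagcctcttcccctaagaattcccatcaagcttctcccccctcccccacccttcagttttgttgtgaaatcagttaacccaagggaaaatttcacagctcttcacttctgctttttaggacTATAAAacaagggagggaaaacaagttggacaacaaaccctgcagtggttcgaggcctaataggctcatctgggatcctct
Nlrp3, chr11:59541319-59541618, plus strand: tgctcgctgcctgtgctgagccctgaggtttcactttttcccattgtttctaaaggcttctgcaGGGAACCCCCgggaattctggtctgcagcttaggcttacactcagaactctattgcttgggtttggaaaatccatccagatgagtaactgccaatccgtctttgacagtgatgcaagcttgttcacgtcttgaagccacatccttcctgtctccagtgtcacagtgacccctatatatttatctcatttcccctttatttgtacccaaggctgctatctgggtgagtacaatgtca
Il1r2, chr1:40085843-40086142, plus strand: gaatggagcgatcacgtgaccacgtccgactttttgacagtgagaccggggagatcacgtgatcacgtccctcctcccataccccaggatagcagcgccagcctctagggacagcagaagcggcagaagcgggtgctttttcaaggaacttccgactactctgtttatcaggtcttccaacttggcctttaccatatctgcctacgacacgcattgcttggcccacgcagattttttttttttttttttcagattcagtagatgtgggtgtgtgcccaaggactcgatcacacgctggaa
The neighbours Il1a and Il1b each held a TATA match close before the start, a motif that 13.6% of the 32851 promoters of the same length held. Il1a also held a PU.1 match (13.6% of promoters) and an AP-1 match (7.81% of promoters). The Nlrp3 window at the gene's first start held an NF-kB match, as did 20.7% of promoters, and a second annotated Nlrp3 start held 2 PU.1 matches. The Il1r2 window lies at a start inside the gene, whose GENCODE span begins at chr1:40074079, and not at the first base of that span. It held none of the 7 motifs, which says only that these letters are not in this window. A match is a string of letters and not a measured site.

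In GENCODE vM21 on GRCm38, Il1a (ENSMUSG00000027399) spans chr2:129299610-129309972 on the minus strand and Il1b (ENSMUSG00000027398) chr2:129364570-129371139 on the same strand. Il1rn (ENSMUSG00000026981) lies apart from them at chr2:24336853-24351494. The receptor genes Il1r2 (ENSMUSG00000026073, chr1:40074079-40125231) and Il1r1 (ENSMUSG00000026072, chr1:40225080-40317257) are near each other, and Il1rap (ENSMUSG00000022514) is at chr16:26581704-26730117. Nlrp3 (ENSMUSG00000032691) is at chr11:59541568-59566956, Casp1 (ENSMUSG00000025888) at chr9:5298517-5307265 and Il18 (ENSMUSG00000039217) at chr9:50554827-50581840. All counts here are over whole genes. Il1b overlaps the antisense gene Il1bos, which had 28 UMIs in phagocyte nuclei beside 1689 of Il1b. Il1a overlaps Gm14023 on the other strand (55 UMIs beside 364), and Il1r2 overlaps the antisense gene Gm16894 (31 beside 317). Whether counting used strand is not stated, so reads of such pairs may not be separated.

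Among the cytokines, Il1b stood highest in the activated clusters. Cluster 8 had 1547 CPM (interval 1364 to 1747). Cluster 2 had 1214 CPM (1139 to 1293), and cluster 9, a small cluster led by Mmp13, 848 CPM (691 to 1030.5). Cluster 3 followed at 350.2 CPM. The intervals of these 4 clusters did not overlap one another. Clusters 6, 1, 7 and 5 had 149, 108, 83.4 and 59.3 CPM, and neighbours in that order overlapped. In cluster 6, 9 of 19 UMIs came from 1 nucleus, and the level was 78.7 CPM without it. The resident cluster 4 had the lowest level among phagocytes, 17.1 CPM from 8 UMIs, beside 13.1 and 3.19 CPM in the 2 epithelial-marker clusters. Summed, Il1b had 1272 CPM in activated nuclei and 153 CPM in other phagocyte nuclei, a ratio of 8.29 (7.44 to 9.25). Within well 1 alone the ratio was 8.16.

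Il1a, the other interleukin 1 receptor agonist, reached 406 CPM in cluster 8. Cluster 9 had 202 CPM of it, with 198 CPM in cluster 2. The intervals of clusters 9 and 2 overlapped, and that of cluster 8 lay above both. Cluster 7 had 92.3 CPM, and clusters 1, 6 and 5 had 51.8, 47.0 and 45.2 CPM. Cluster 3 had 350.2 CPM of Il1b but 2 UMIs of Il1a (4.38 CPM), and cluster 4 had none, where 3 counts would make 6.42 CPM. Activated nuclei had 234 CPM and other phagocyte nuclei 46.0 CPM, a ratio of 5.08 (4.09 to 6.33). Within well 1 alone it was 3.46.

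Il18, the IL-1 family cytokine that also needs caspase cleavage, did not follow Il1b. It was highest in cluster 1, the largest phagocyte cluster, at 79.1 CPM (63.6 to 97.2), and had 26.9 CPM in activated and 51.7 CPM in other phagocyte nuclei. The ratio of 0.520 (0.330 to 0.792) did not reach the fold of 0.5, which it passed within well 1 (0.441). Clusters 4, 6, 8 and 3 had between 39.4 and 49.3 CPM with overlapping intervals.

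**Figure D1:**
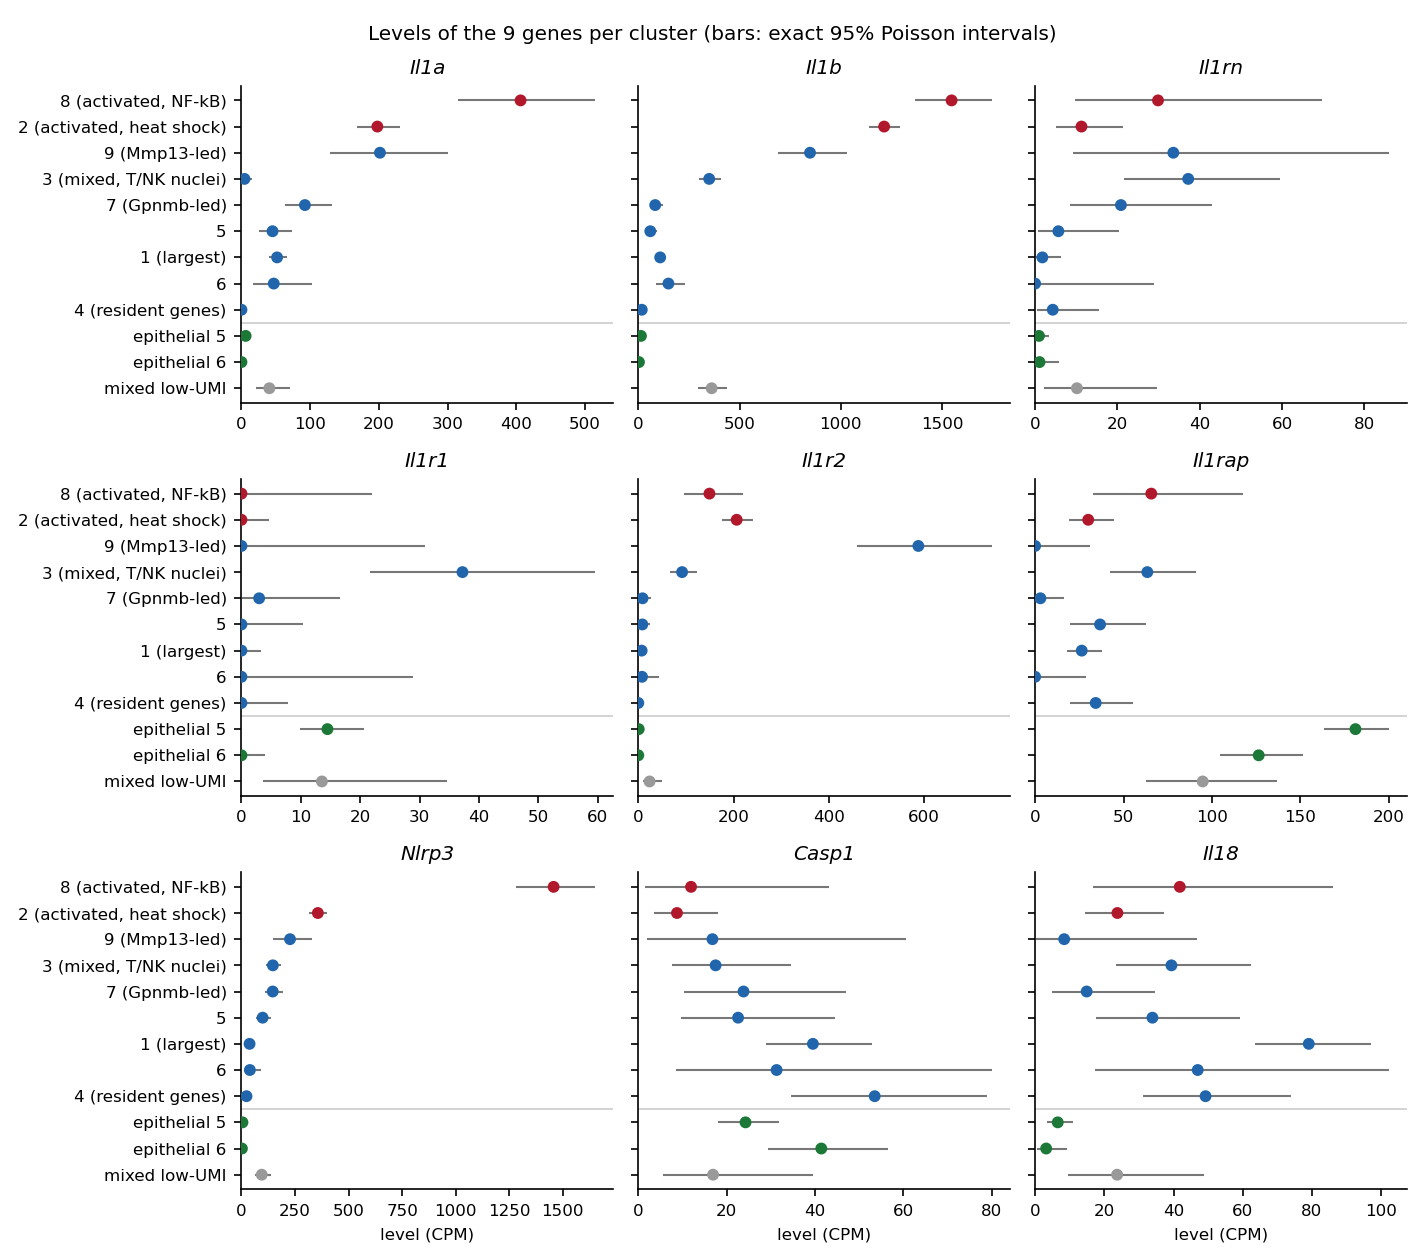
Levels of the 9 genes in each cluster of nuclei, in CPM on the x axis, with clusters down the y axis. Points are levels and bars are exact 95% Poisson intervals. Red marks the activated clusters, blue the other phagocyte clusters, green the epithelial-marker clusters and grey the low-UMI cluster. Il1b and Nlrp3 are highest in clusters 8 and 2, while Casp1 and Il1rap are not.

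The antagonist gene Il1rn was sparsely counted. It had 14 UMIs in activated nuclei (14.5 CPM) and 34 in other phagocyte nuclei (11.3 CPM), a ratio of 1.28 (0.633 to 2.44). Within well 1 the ratio was 2.14 (0.918 to 5.06), past the fold of 2 but with an interval that spans 1. Its highest level was 37.2 CPM in cluster 3, from 17 UMIs. Cluster 9 had 33.6 CPM from 4 UMIs, with 29.9 CPM in cluster 8 from 5. These intervals overlapped. For each 100 Il1b UMIs, activated nuclei had 1.14 Il1rn UMIs (0.621 to 1.92) and other phagocyte nuclei 7.39 (5.06 to 10.5), intervals that did not overlap. This pooled contrast mixes state and well, since 333 of 335 activated nuclei came from well 1. Over all phagocyte nuclei the value was 1.73 in well 1 and 11.6 in well 2. The contrast follows Il1b more than Il1rn, whose own levels had a ratio of 1.28. Within well 1 alone, the Il1b ratio given above also exceeded the Il1rn ratio of 2.14. Cluster 7 had 25 per 100 from 7 Il1rn UMIs, and cluster 3 had 10.6.

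The decoy receptor Il1r2, which dampens IL-1 action, was on the side of the agonists. It had 197 CPM in activated nuclei and 42.4 CPM in other phagocyte nuclei, a ratio of 4.64 (3.69 to 5.86), and 4.10 within well 1. Cluster 9 had the highest level, 588 CPM, but 43 of its 70 UMIs came from 1 nucleus, and the level was 239 CPM without it. Clusters 2 and 8 had 206 and 149 CPM with overlapping intervals, cluster 3 had 91.9 CPM, and every other phagocyte cluster had 8.94 CPM or less. In phagocyte nuclei without a UMI of an epithelial marker other than Trps1, the activated ratio was 2.67, and it was 5.85 without the nucleus with most Il1r2 UMIs in each set. The epithelial list summed to 1371 CPM in activated and 1322 CPM in other phagocyte nuclei. With each nucleus weighted equally the ratio was 2.95. Cluster 9 over the other phagocytes gave 9.15 for Il1r2, 2.05 for Il1b and 2.28 for Il1a, and 4 of 8 members with enough UMIs were called higher (Il1rn too) and 2 lower (Il1rap and Il18). Of all genes in that comparison 7.34% were called higher and 27.4% lower, and of the genes not used in clustering 7.37% and 24.1%. Il1rn rests on 4 UMIs in cluster 9 (2.94, 0.766 to 8.06) and Il18 on 1 UMI (0.179, 0.0045 to 1.01), with intervals that span 1. Cluster 9 was singled out after values were seen.

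The signalling receptor Il1r1 was rarely counted in phagocytes at this depth, with 18 UMIs in 7 nuclei, 17 of the UMIs in cluster 3. No UMI was counted in 335 activated nuclei, where 3 counts would make 3.10 CPM, against 6.00 CPM in other phagocyte nuclei. At that limit the activated level was at least 1.93-fold lower, and the exact 95% upper bound of the ratio was 0.706. When nuclei were gated by the activated lists instead, the ratio turned to 2.88. Of the 18 UMIs, 9 lay in 2 nuclei with 10 or more T or NK marker UMIs and 4 macrophage marker UMIs together. The other 9 lay in 5 nuclei of well 2 with 0 or 1 T or NK marker UMI and 71 macrophage marker UMIs together. In epithelial-marker cluster 5, 31 UMIs in 14 nuclei gave 14.5 CPM, and epithelial-marker cluster 6 had none. The accessory chain Il1rap had 36.2 CPM in activated and 29.7 CPM in other phagocyte nuclei, a ratio of 1.22 (0.801 to 1.82). Its highest phagocyte levels were 65.7 CPM in cluster 8 and 63.5 CPM in cluster 3, with overlapping intervals. Both epithelial-marker clusters stood above these, at 181 and 126 CPM. Phagocyte clusters 6 and 9 had no Il1rap UMI, where 3 counts would make 23.5 and 25.2 CPM.

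Among the inflammasome genes, the sensor Nlrp3 had 1457 CPM in cluster 8 (1280.3 to 1652), above 357 CPM in cluster 2 (316 to 401). Cluster 9 had 227 CPM, clusters 3 and 7 had 147 and 146 CPM with nearly equal intervals, and cluster 5 had 98.9 CPM. Clusters 6, 1 and 4 had 39.2, 37.8 and 23.6 CPM and overlapped. Activated nuclei had 547 CPM and other phagocyte nuclei 79.0 CPM, a ratio of 6.92 (5.93 to 8.11), and 7.95 within well 1.

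The protease gene Casp1 had its highest phagocyte level in cluster 4, the resident cluster, at 53.5 CPM (34.6 to 79.0), followed by 39.5 CPM in cluster 1. Activated nuclei had 9.31 CPM from 9 UMIs and other phagocyte nuclei 33.4 CPM, a ratio of 0.279 (0.124 to 0.552). Within well 1 it was 0.254. Summed over the activated set, the sensor was thus called higher and the protease lower. Of all genes tested there, 4.81% were called higher and 17.1% lower. Casp1 UMIs lay in 9 of the 335 activated nuclei, so the sums do not describe single nuclei.

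**Figure D2:**
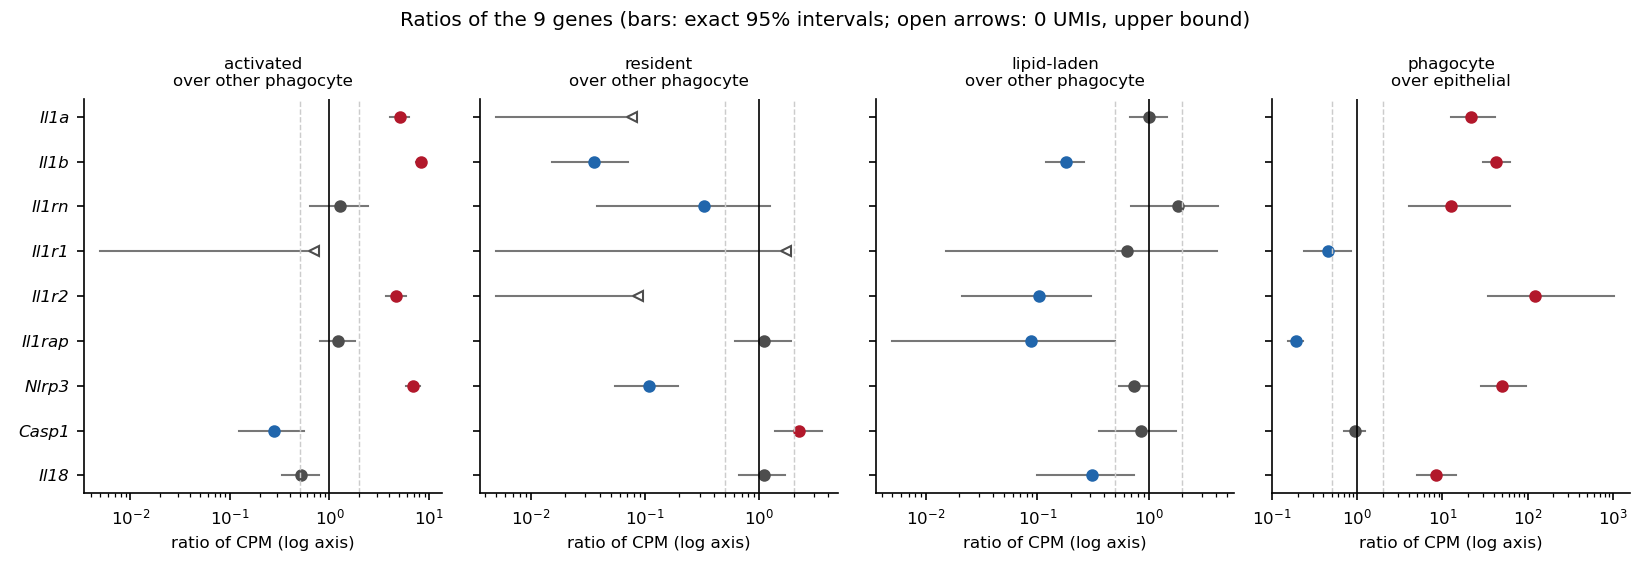
Ratios of CPM for the 9 genes in 4 comparisons, on a log x axis, with exact 95% intervals. Red points are ratios of at least 2, blue of at most 0.5, and open arrows mark 0 UMIs in the first set with the upper bound. In the activated comparison Il1b, Nlrp3, Il1a and Il1r2 lie above 2 (8.29, 6.92, 5.08 and 4.64) and Casp1 lies at 0.279.

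In all, 4 of the 8 members with at least 20 UMIs were called higher in activated nuclei (Il1a, Il1b, Il1r2, Nlrp3), beside 4.81% of all 10210 genes tested and 2.26% of the 8197 genes that were not used in clustering. Those 8197 genes are mostly the less variable ones, so their share is no matched background. Casp1 was called lower, beside 17.1% of all genes and 16.2% of those not used in clustering. The median ratio was 2.96 over the 8 members and 0.767 over all genes. Neutrophils are a source of Il1b and Il1r2 outside macrophages, and the sort left out Ly6G positive cells. Of 6 neutrophil markers 4 had a UMI in activated nuclei, summing to 157 CPM, and 3 in other phagocyte nuclei, summing to 85.7 CPM. Mmp9 and Retnlg were at 0 in both. Without nuclei holding a UMI of S100a8, S100a9, Cxcr2, Mmp9 or Retnlg the ratio was 8.19 for Il1b and 4.90 for Il1r2. Csf3r, the remaining marker, was not used in this filter. In cluster 8 all 26 neutrophil marker UMIs were of Csf3r, and in cluster 9 all 10. The filter could thus remove no nucleus of these clusters, and a neutrophil source was not tested there. The stress list was itself far higher in activated nuclei, and its part in the result was not tested.

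The NF-kB-led cluster 8 and the heat-shock-led cluster 2 differed most in Nlrp3. Its level in cluster 8 was 4.09 times that in cluster 2 (3.43 to 4.87). Il1a was 2.05 times higher (1.52 to 2.75) and Il1b 1.27 times (1.11 to 1.46), while the ratio of Il1r2 was 0.723 (0.455 to 1.11). Of 6 members with enough UMIs, 3 were called higher (Il1a, Il1rap, Nlrp3) and none lower, beside 6.92% higher and 25.7% lower among all genes. Among genes not used in clustering the shares were 4.46% and 26.8%. The Il1rap ratio in this contrast was 2.19, with an interval that spans 1 (0.967 to 4.64). This contrast was chosen after values were seen. Casp4, the sensor of intracellular lipopolysaccharide, reached 400.2 CPM in cluster 8, beside 133 CPM in cluster 2. Nfkb2, which encodes the p100 precursor, had 102 and 31.3 CPM. P2rx7, the ATP-gated channel upstream of Nlrp3, had 53.8 CPM in cluster 8 and 337 CPM in cluster 2. Txnip, which encodes a thioredoxin-binding protein, had 29.9 and 141 CPM. Pycard, the adaptor that joins Nlrp3 to caspase 1, had 1 UMI in cluster 8 and 21 in cluster 2, a ratio of 0.227 (0.0055 to 1.41).

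Nuclei were also graded by their share of UMIs in each of the 2 activated lists, with the top 25% called high, a grading chosen after values were seen. Il1b was 1377 CPM in the 178 nuclei high in both lists, 833 CPM in the 136 high in the NF-kB list alone, 890 CPM in the 136 high in the stress list alone and 114 CPM in the 806 high in neither. The intervals of the 2 sets high in 1 list overlapped (744 to 930.0 and 798 to 989). Well 1 gave 144, 106, 99 and 526 of these nuclei. Nlrp3 was 543, 724, 134 and 57.3 CPM in the same order, so its level in nuclei high in the stress list alone lay below that of both sets high in the NF-kB list. Il1a had 246, 295, 49.0 and 38.6 CPM. Il1r2 had 235, 107, 160 and 34.1 CPM. Il1rn had 21.0, 28.7, 12.9 and 7.86 CPM, from 11, 11, 5 and 21 UMIs, and its interval in the NF-kB list alone (14.3 to 51.4) lay above that in neither (4.87 to 12.0). Casp1 had 7.64, 15.7, 15.5 and 34.8 CPM. The cuts are a range and no type, and 77 and 55 nuclei lay within 10% of them.

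**Figure D3:**
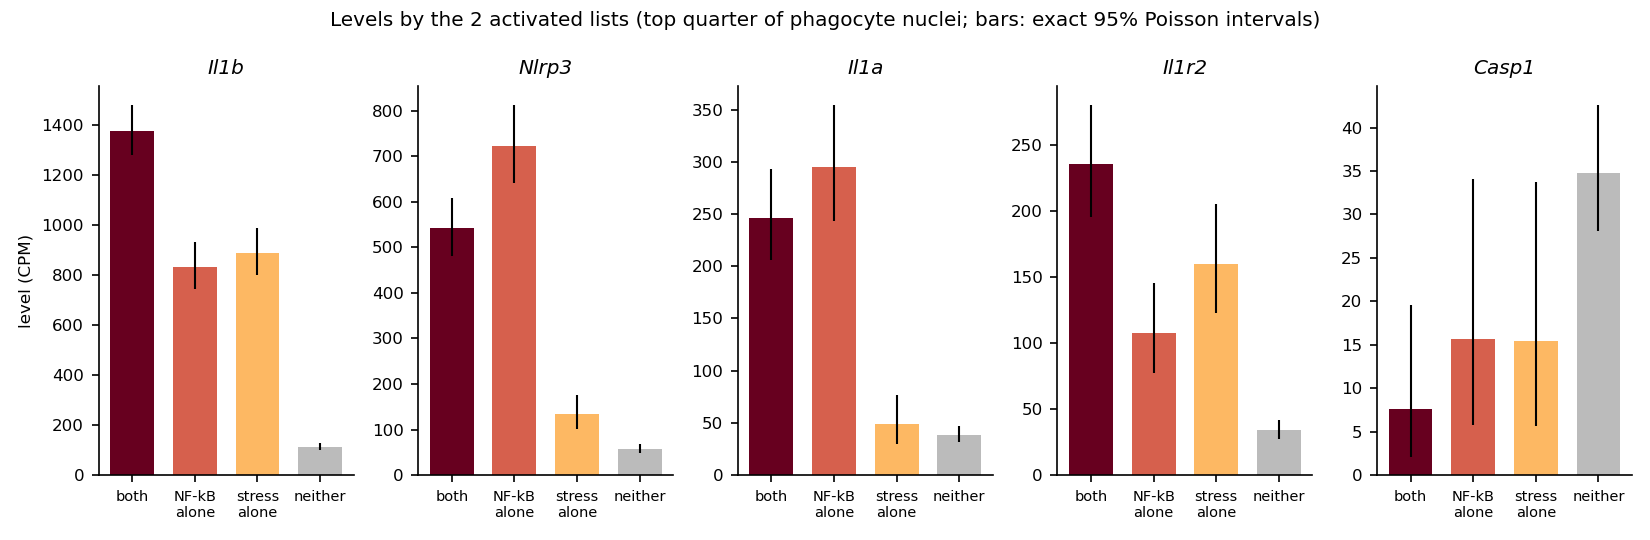
Levels of 5 genes in CPM (y axis, starting at 0) in nuclei split by 2 marker lists, with exact 95% Poisson intervals. "Both" is the top 25% in both lists, "NF-kB alone" and "stress alone" the top 25% in 1 list only, "neither" the rest. Il1b is 833 and 890 CPM in the 2 sets high in 1 list, while Nlrp3 is 724 and 134 CPM.

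Detection per nucleus was compared after each nucleus was thinned to 1000 UMIs, which left out 22 activated, 54 other phagocyte and 21 epithelial-marker nuclei as too shallow. An Il1b UMI was seen in 53.0% of activated (47.3 to 58.7), 9.80% of other phagocyte (7.91 to 12.0) and 2.81% of epithelial-marker nuclei (1.14 to 5.71). The unthinned shares were 64.8%, 16.5% and 8.89%, with median depths of 2627, 2873 and 5217 UMIs. Nlrp3 was seen in 28.8%, 7.38% and 0.803% of the thinned nuclei, and Il1r2 in 10.2% of activated and 2.42% of other phagocyte nuclei. In 249 thinned epithelial-marker nuclei Il1r2 was not seen, where 3 nuclei would make a share of 1.205% and the exact 95% upper bound is 1.47%. The shares in other phagocyte nuclei lay above those in epithelial-marker nuclei for Il1b and Nlrp3.

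Nlrp3 was seen more often in thinned nuclei with an Il1b UMI than in those without one. Over all phagocyte nuclei the share was 27.9% (70 of 251) and 9.04% (84 of 929), a difference of 18.8 points. Inside the activated set it was 32.5% with Il1b (25.5 to 40.2) and 24.5% without (17.8 to 32.3), a difference of 8.04 points with overlapping intervals. This set pools cluster 2, where Nlrp3 was seen in 20.9% of thinned nuclei, with cluster 8, where it was seen in 62.7%. Within cluster 2 the shares with and without Il1b were 22.8% and 18.9%, and within cluster 8 64.1% and 60%. Intervals overlapped within each cluster. Among other phagocyte nuclei the shares were 18.8% and 6.14%. For Il1r2 the shares in nuclei with and without Il1b were 11.2% and 2.69% over all phagocytes, 12.0% and 8.16% in the activated set, and 9.41% and 1.66% in the others. The 2 activated clusters went opposite ways. In cluster 2 the shares were 13.4% (17 of 127) and 4.72% (6 of 127). In cluster 8 they were 7.69% (3 of 39) and 30% (6 of 20). Intervals overlapped within each of these clusters. Il1r2 was seen in 8.44% of nuclei with Nlrp3 and 3.90% without, but in 10% and 10.3% inside the activated set. Il1a was seen in 14.7% of phagocyte nuclei with Il1b and 5.06% without, in 11.8% and 2.56% of the others, and in 16.3% and 18.4% of activated nuclei. Unthinned, the activated shares were 33.2% and 23.7%. All 3 genes were seen in 7 of 1180 thinned phagocyte nuclei, 5 of them activated, and in 30 of 1256 unthinned ones. Median depth was 2754 UMIs in phagocyte nuclei with Il1b and 2826 without, but 3199 with Nlrp3 and 2730 without.

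**Figure D4:**
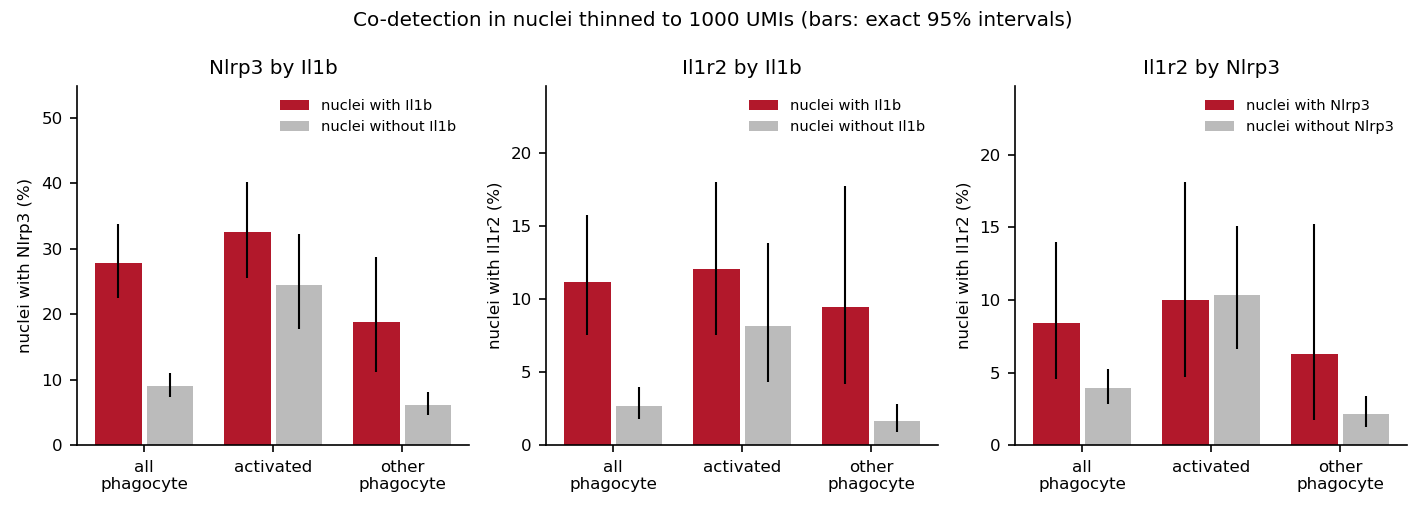
Share of thinned nuclei with a UMI of Nlrp3 or Il1r2 (y axis, percent, starting at 0), in nuclei with (red) and without (grey) a UMI of the other named gene, with exact 95% intervals. Over all phagocytes Nlrp3 was seen in 27.9% of nuclei with Il1b and 9.04% without, and inside the activated set in 32.5% and 24.5%.

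In resident-list nuclei, of which 116 of 143 came from well 2, 5 of 8 members were called lower, beside 14.8% of all genes and 10.1% of those not used in clustering. Casp1 was called higher, beside 8.81% and 6.95%. Il1b had 17.1 CPM in resident nuclei and 481 CPM in the other phagocyte nuclei, a ratio of 0.0356 (0.0154 to 0.0704). Nlrp3 had 23.6 and 216 CPM, a ratio of 0.109 (0.0542 to 0.196). Il1a and Il1r2 had no UMI in resident nuclei, at least 16.2-fold and 14.1-fold lower than in the other nuclei at the limit of 3 counts. The exact 95% upper bounds of the ratios were 0.0763 and 0.0877. Il1rn had 2 UMIs, a ratio of 0.326 whose interval (0.0383 to 1.25) spans 1. Casp1 had 53.5 CPM in resident and 24.0 CPM in other phagocyte nuclei (ratio 2.23, 1.37 to 3.52), and over the alternatives its ratio ran between 1.36 and 3.03. Il18 gave 1.09 (0.672 to 1.70) and Il1rap 1.11 (0.612 to 1.89). The Il1b ratio was 0.0335 within well 1 and 0.0772 within well 2. It was 0.398 when phagocytes were clustered more coarsely and 0.393 when nuclei were gated by the list, and Il1rn then went above 1.

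In the lipid-laden cluster 7, Il1b had 83.4 CPM and the other phagocytes 458 CPM (0.182, 0.121 to 0.264), while Nlrp3 was 0.739 (0.541 to 0.987) and Il1a 1.01. Here 4 of 8 members were called lower (Il1b, Il1r2, Il1rap, Il18), beside 22.6% of all genes and 21% of those not used in clustering. None was higher, beside 10.5% and 7.44%. Il1r2 and Il1rap rest on 3 UMIs and 1 UMI in cluster 7. The Il1b result was 0.283 within well 1 and reversed to 1.21 when nuclei were gated by the lipid list. Nlrp3 was then 1.80, and 1.10 within well 1.

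Between phagocyte and epithelial-marker nuclei, 6 of 9 members were called higher in phagocytes, beside 16.4% of all genes and 15.1% of those not used in clustering. The other 2 called were lower, beside 29.5% and 22%. Il1b had 426 CPM in phagocyte and 10.1 CPM in epithelial-marker nuclei (ratio 42.4), Nlrp3 193 and 3.89 CPM (49.6), Il1r2 80.0 and 0.649 CPM (123) and Il18 45.7 and 5.52 CPM (8.28). The Il1b ratio was 17.1 with nuclei of at least 1000 UMIs and 20.9 with each nucleus weighted equally. Casp1 did not differ by the fold used, with 27.5 CPM in phagocyte and 29.5 CPM in epithelial-marker nuclei (0.931, 0.698 to 1.24). Il1rap was lower in phagocytes, at 31.3 CPM beside 164 CPM (0.190, 0.155 to 0.232), and the ratio was 0.406 within well 2. Il1r1 had 4.54 and 10.1 CPM (0.451, 0.238 to 0.833), and its ratio was 0.225 without nuclei holding 2 or more T or NK marker UMIs. After thinning, Il1r1 was seen in 0.508% of phagocyte and 0.402% of epithelial-marker nuclei (6 of 1180 and 1 of 249), so that the order of the CPM is not seen in these shares.

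Beyond the 9 genes, the pathway list was described by count. In activated nuclei 2 of 42 genes tested were called higher, Gbp5 (3.17), a guanylate-binding protein that aids inflammasome assembly, and Zfp36 (3.70), which destabilises cytokine mRNAs, and 9 were called lower. Of all genes, 4.81% were higher and 17.1% lower in that comparison, shares close to those of the list. Nfkb1, Rel and Tnfaip3 had served in choosing the activated clusters and were left out. Il1rl1, the IL-33 receptor, and Il18r1 had no UMIs in activated nuclei, Il18rap had 3.10 CPM there and 40.7 CPM in other phagocyte nuclei, and Irak3, an inhibitor of the pathway, had 2.07 and 29.7 CPM. Il18r1 was among the leading genes of cluster 3, which holds the T or NK marker nuclei. In resident nuclei 7 of 45 were higher and 7 lower, beside 8.81% and 14.8% of all genes. Irak3 had 85.7 CPM there and 14.6 CPM in other phagocyte nuclei (5.87), Ninj1, which ruptures the membrane in lytic death, 126 and 26.9 CPM (4.70), and Irak2, a signalling kinase, 169 and 796 CPM (0.213). Il1rl1 (6.42) and the pyrin gene Mefv (4.43) were also higher there. Gbp5 and Gbp2 had no UMI in resident nuclei, beside 89 and 31 in the others, and Tnfaip3, an inhibitor of NF-kB, gave 0.292. In cluster 7, 1 of 45 was higher and 11 lower, beside 10.5% and 22.6% of all genes. Among those lower was Nlrp1b, a sensor, with 122 CPM there and 475 CPM in other phagocyte nuclei. Il18rap, Nlrp1a and Mefv had no UMI in cluster 7, beside 125, 67 and 35 in the others. Naip6, a flagellin sensor component, gave 0.249, and Il1rl2, the IL-36 receptor, had 1 UMI beside 184. Against epithelial-marker nuclei, 29 of 48 were higher in phagocytes and 3 lower, beside 16.4% and 29.5% of all genes. Nlrp1b was 125 times higher, the transcription factor gene Spi1 106 times and the DNA sensor gene Aim2 56.0 times. Il18rap (48.6) and the pore-forming Gsdmd (35.8), each on 2 epithelial-marker UMIs, Irf8 (31.8), Nlrc4 (26.6), Naip5 (22.8) and Naip2 (15.6) were also higher. Sigirr (0.133), a negative regulator, and Il1rapl1 (0.222) were lower. In phagocyte nuclei as a whole, Irak2 had 722 CPM, Nfkb1 695, Nlrp1b 445, Tab2 318, Zfp36 316, Rel 313, Spi1 309 and Nek7 308 CPM, which are not divided by length and set no order between these genes.

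**Figure D5:**
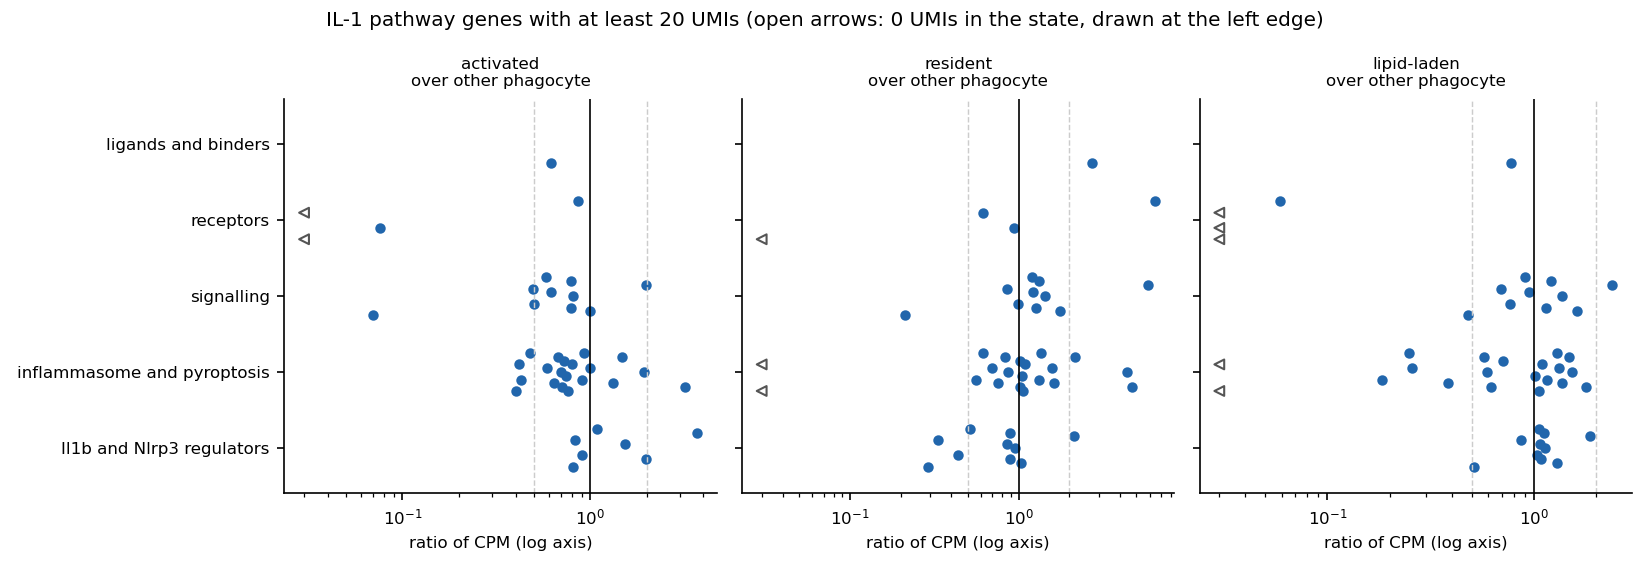
Ratios of CPM (log x axis) for pathway genes with at least 20 UMIs, by role on the y axis, in 3 comparisons. Each point is a gene, dashed lines mark 0.5 and 2, and open arrows mark 0 UMIs in the named state. In the activated panel 2 of 42 genes lie at or above 2 and 9 at or below 0.5, beside 4.81% and 17.1% of all genes.

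Over 1256 phagocyte nuclei, the genes whose counts followed Il1b most closely were Cd83 (Pearson r = 0.494), Nfe2l2, Btg2, Ifrd1 and Mpp7, of 5953 compared. For Nlrp3 they were Ifrd1 (0.401), Kdm6b, Ell2, Rabgef1 and Nr4a3, and for Il1r2 Ptgs2 (0.259), Nr4a3, Srgn, Ifrd1 and Slc15a3. For Il1rn the closest was Cd80 at 0.192, a weak value in sparse counts. The points are nuclei of 2 wells with different depths, and these values describe them only.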

How the data were processed

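The authors deposited 1 table of UMI counts per gene and nucleus, not normalized. Reads were processed with Cell Ranger 5.0 on mm10 (submitters' processing notes), and version 5.0.1 is named in the matrix, per the file headers. Whether introns or strand were used is not given in the sources used here. From these counts, nuclei with at least 500 UMIs, 300 genes and at most 5% mitochondrial UMIs were kept, and Scrublet, run per well, removed 0 doublets in well 1 and 5 in well 2 (of 1838 barcodes in all, so others may remain). Clustering used scanpy 1.11.5 and igraph 0.11.9 in Python 3.11.15: 2000 variable genes, 30 components, 15 neighbours, Leiden resolution 0.5 for all nuclei and 0.8 for phagocytes. Counts were summed per set. A marker was counted in a cluster at 5 UMIs, 20 CPM and 0.5 of its highest cluster level or more, 3 counted markers made a class, and states were the clusters with the highest sum of a list and any at 0.5 of it or more. Genes named from the pathway list were drawn from those that had at least 20 UMIs and a ratio of at least 3 or at most 1/3, or were among the 8 highest. The genes and lists were chosen with earlier results of these data known. Of the identifiers, 32235 of 32285 were found in GENCODE vM21. On simulated counts for the activated comparison (10210 genes), 98% of 200 changed genes were recovered and 3.35% of unchanged genes were called. These counts were Poisson draws per set with fixed folds, without variation between nuclei or wells. The shares are therefore no error rate for calls on the real counts. Depth limits precision. Sequences are RefSeq's. Alternatives changed filters, clustering, weighting, wells, gates, thinning depth and the nuclei used, and 5 of them were added after values were seen.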

Additional observations from a re-analysis of the deposited data

How the results depend on the processing

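Of 632 alternative values, 548 stayed within the interval of the reported one, 77 moved and 7 reversed. No paired analysis was possible because there is 1 sample per genotype, wells are not tied to genotypes and no test was run. Activated over other phagocyte nuclei, Il1b was 9.71 with at least 1000 UMIs, 6.21 with members used in clustering, 9.53 at resolution 0.5, 6.54 with nuclei weighted equally and 6.44 with list gates. Nlrp3 was 8.27 with members in clustering, 5.79 weighted equally and 5.27 with gates. Il1r2 was 2.95 weighted equally, 6.42 with gates and 2.67 without nuclei holding an epithelial marker other than Trps1, an alternative chosen after seeing the data. Phagocyte over epithelial-marker nuclei, Il1b was 17.1 with at least 1000 UMIs and 20.9 weighted equally, and Il1rap 0.238 weighted equally and 0.406 in well 2. In resident nuclei Il1b was 0.398 at resolution 0.5, 0.0772 in well 2 and 0.393 with gates. Il1rn reversed to 2.25 at resolution 0.5 and 1.57 with gates, and Il1r1 to 3.00 and 1.996. In lipid-laden nuclei Il1b was 0.283 in well 1 and reversed to 1.21 with gates, and Il1rap reversed to 1.27 with gates. With gates, Il1r1 reversed to 2.88 in activated nuclei. The share difference of Nlrp3 by Il1b was 11.0 points at 500 UMIs and 26.0 at 2000. The cause was not tested. With another seed the resident state held 55 nuclei in place of 143. Well 2 alone gave no activated ratio, with 2 nuclei.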

Other observations

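The 2 wells, which are unmapped, differed in the level of several members in phagocyte nuclei. Il1b had 552 CPM in well 1 and 152 CPM in well 2, Nlrp3 239.7 and 92.1 CPM, Il1a 127 and 16.01 CPM and Il1r2 101 and 33.6 CPM. Il1rn had 9.57 CPM in well 1 and 17.6 CPM in well 2, and Casp1 27.2 and 28.0 CPM. For each 100 Il1b UMIs there were 1.73 Il1rn UMIs in well 1 (1.13 to 2.55) and 11.6 in well 2 (7.09 to 18.0). Well 1 held 333 of the 335 activated nuclei, and 542 of the 921 other phagocyte nuclei. In the clustering of all nuclei, a phagocyte cluster with 365 of its 402 nuclei from well 2 had the Y-linked genes Eif2s3y and Uty among its leading genes. Whether the wells differ in the sex of the mice was not tested.

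The 286 nuclei of the low-UMI cluster, which held macrophage and epithelial markers, had 362 CPM of Il1b, 94.8 CPM of Nlrp3 and 23.7 CPM of Il1r2. Their 26.2 Nlrp3 UMIs per 100 Il1b UMIs had an interval of 16.6 to 40.0.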
